A study of Mus musculus with 16 samples.

Results

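The autophagy machinery is a set of 44 mouse genes, taken by gene symbol from a list that runs from the start of autophagosome formation to fusion with the lysosome. All 44 were found among the 56980 rows of the count table, each on 1 row, and all 44 were among the 15385 genes that passed the filter on low counts. They were followed in bone-marrow-derived macrophages, which are macrophages grown from marrow cells in the growth factor M-CSF. The cells came from frozen stocks of 12-week-old mice labelled male, either wild type (Grn+/+, WT) or without Grn (Grn-/-, GrnKO), the gene of the lysosomal and secreted protein progranulin. Mice of both genotypes were on a C57Bl/6J background with the hTfR mu/hu knock-in, so the controls carried it too. Each culture received Cas9 with guides to all of Mitf, Tfe3 and Tfeb, an edit called TKO here, or with a guide to Rosa26, a control locus, and RNA was taken 10 days later. The protocol describes no selection of clones, and the share of cells that carried each edit is not given in the sources used here. Each of the 4 groups, Rosa26 or TKO in WT and Rosa26 or TKO in GrnKO, held 4 samples, described as 4 animals, and each of 4 batches held 1 sample of each group, so replicate 1 of a group is its sample of batch 1 and so on. In such bulk samples, fewer cells of a type and less RNA per cell cannot be told apart.

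Macroautophagy encloses cytoplasm in a double membrane and delivers it to the lysosome. A kinase complex around Ulk1 starts the process, a lipid kinase complex makes the phosphoinositide PI3P on the forming membrane, and a ubiquitin-like conjugation system attaches Atg8 proteins to it. Receptors tie cargo to the Atg8 proteins, and tethers and SNARE proteins fuse the closed autophagosome with the lysosome. The transcription factors TFEB, TFE3 and MITF (MiT/TFE factors) bind E-box sites and are known to raise lysosomal and many autophagy genes when lysosomes are stressed, and loss of progranulin is known to disturb lysosomes in macrophages and microglia.

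The 16 libraries were made by 3′ tag sequencing of polyadenylated RNA and held between 7069445 counts (WT Rosa26 replicate 1) and 32969401 counts (GrnKO Rosa26 replicate 4). Depth differed with group, with 28431505 or more in every GrnKO Rosa26 library and 22469333 or fewer in every WT Rosa26 library. Grn lay between 40.7 and 56.1 CPM (counts scaled to a common library size) in GrnKO libraries and between 2520 and 3690 CPM in WT libraries. Tfe3 lay between 136 and 199 CPM in WT TKO and between 230 and 400 CPM in WT Rosa26, and between 135 and 205 CPM in GrnKO TKO and 218 and 262 CPM in GrnKO Rosa26. Tfeb overlapped between the edits in both genotypes, and Mitf overlapped in WT and stood higher in GrnKO TKO (158 to 187 CPM) than in GrnKO Rosa26 (133 to 154 CPM); a 3′ tag away from the edited site does not check an edit. All 7 macrophage markers were above 1 CPM in every group, and their summed level was 2130 to 2230 CPM in GrnKO Rosa26 and 2660 to 3460 CPM in WT Rosa26. Single markers went both ways: Itgam (182 to 227 against 496 to 785 CPM), Adgre1 (279 to 311 against 465 to 754 CPM) and Cd14 (192 to 225 against 280 to 354 CPM) were lower in GrnKO Rosa26, and Mertk (168 to 221 against 67.7 to 132 CPM) and Csf1r (413 to 429 against 376 to 406 CPM) were higher. Markers of neutrophils, lymphocytes, mast cells, dendritic cells and stromal cells summed to 16.6 CPM or less per list in every library. Of the erythroid and megakaryocyte markers only Pf4 had a group mean above 1 CPM and Hba-a1 was at 0 in every library, and the list's sum moved with the groups, from 210 to 269 CPM in GrnKO Rosa26 and from 384 to 524 CPM in WT Rosa26 up to 819 to 945 CPM in WT TKO. Although the mice are labelled male, the X-inactivation transcript Xist lay between 169 and 269 CPM in all libraries except those of WT replicate 3 and GrnKO replicate 4. The Y-linked Ddx3y lay between 31.7 and 122 CPM in the libraries of WT replicates 2 and 3 and GrnKO replicate 4, and at 1.23 CPM or less in the others. Libraries of 1 genotype and batch had like values in both edits, so comparisons of edits within a genotype are balanced in these transcripts and comparisons of genotypes are not. The series describes 16 animals, but with such like values both edits of 1 genotype and batch may share an animal, and the groups of 1 genotype would then share their 4 animals; this was not tested. The part of depth, Pf4 and these transcripts in the results below was not tested beyond the values given beside them. For depth, counts with all libraries thinned to the shallowest are given at the end.

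Loss of Grn in control-edited macrophages raised 21 of the 44 autophagy genes and lowered 7, and the other 16 did not pass the test. Called means an adjusted p under 0.05 in edgeR's quasi-likelihood test, fitted on all genes with group and batch as terms and adjusted over the 15385 genes by the Benjamini-Hochberg method, and a log2 fold change is given ± its standard error. Over all genes tested in GrnKO Rosa26 against WT Rosa26, 23.1% were called higher and 21.5% lower, so the share of members called higher was 47.7% beside 23.1% and the share called lower was 15.9% beside 21.5%. The median log2 fold change was 0.215 over the members and 0.0044 over all genes. The genes that rose most were Tecpr1, Gabarapl1 and Ulk1, by factors of about 2.39, 2.24 and 2, and those that fell most were Atg9a, Nbr1 and Wdr45. The 16 members called with a log2 fold change of 0.5 or more in size in this comparison or in 1 of the next 4 are given by library below: Ulk1 (ENSMUSG00000029512), Atg101 (ENSMUSG00000037204), Wipi2 (ENSMUSG00000029578), Wdr45 (ENSMUSG00000039382), Atg9a (ENSMUSG00000033124), Atg4b (ENSMUSG00000026280), Atg5 (ENSMUSG00000038160), Gabarapl1 (ENSMUSG00000030161), Map1lc3a (ENSMUSG00000027602), Nbr1 (ENSMUSG00000017119), Optn (ENSMUSG00000026672), Tax1bp1 (ENSMUSG00000004535), Calcoco1 (ENSMUSG00000023055), Tecpr1 (ENSMUSG00000066621), Plekhm1 (ENSMUSG00000034247) and Snap29 (ENSMUSG00000022765). The 44 genes together took 0.42% ± 0.0165 (SD, n = 4) of all counts in WT Rosa26, 0.481% ± 0.00768 in GrnKO Rosa26, 0.445% ± 0.0192 in WT TKO and 0.458% ± 0.0142 in GrnKO TKO. With batches 1 and 2 alone, 19 members were called higher and 4 lower, beside 2674 and 2629 of all 15475 genes tested. With the Ddx3y level as a further term, 20 were called higher and 6 lower, beside 3448 and 3181 of 15385 genes. No member read below 4.18 CPM in any library, so weakly expressed genes were also left out by requiring an average of at least 5 CPM. All 44 members stayed, and 20 were called higher and 8 lower, beside 2674 and 2587 of 9706 genes. Without these changes 3548 of all genes were called higher and 3310 lower. Of all calls, 51.7% were higher, against 65.6% with limma at a pseudocount of 1, where 25 members were called higher and 4 lower. No called member changed sign under any setting tried, in this or the other comparisons.

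Editing of Mitf, Tfe3 and Tfeb in GrnKO cells lowered 14 members and raised 3. Over all genes tested in GrnKO TKO against GrnKO Rosa26, 17.8% were called lower and 14.8% higher, beside 31.8% and 6.82% of the members. The median log2 fold change was -0.085 over the members and -0.0049 over all genes. With weakly expressed genes left out at the cut-off of 5 CPM given above, 11 members were called lower and 6 higher. Beside them stood 1956 lower and 1873 higher of 9706 genes, and the members' median was -0.026. The members' excess of lower calls was therefore smaller against genes nearer to them in level. This comparison shares the 4 GrnKO Rosa26 libraries with the one above, so the values of both are given side by side below and no relation between them is drawn. With batches 1 and 2 alone, only 6 members were called lower and 1 higher, beside 1047 and 960 of all 15475 genes tested. With upper-quartile scaling 11 members were called lower and 6 higher, beside 2240 and 2651 of all 15385 genes. Without these changes 2740 of all genes were called lower and 2271 higher, so the calls of all genes moved as well. Of all calls, 45.3% were higher, against 34% with limma at a pseudocount of 1, where 17 members were called lower and 2 higher.

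**Figure D1:**
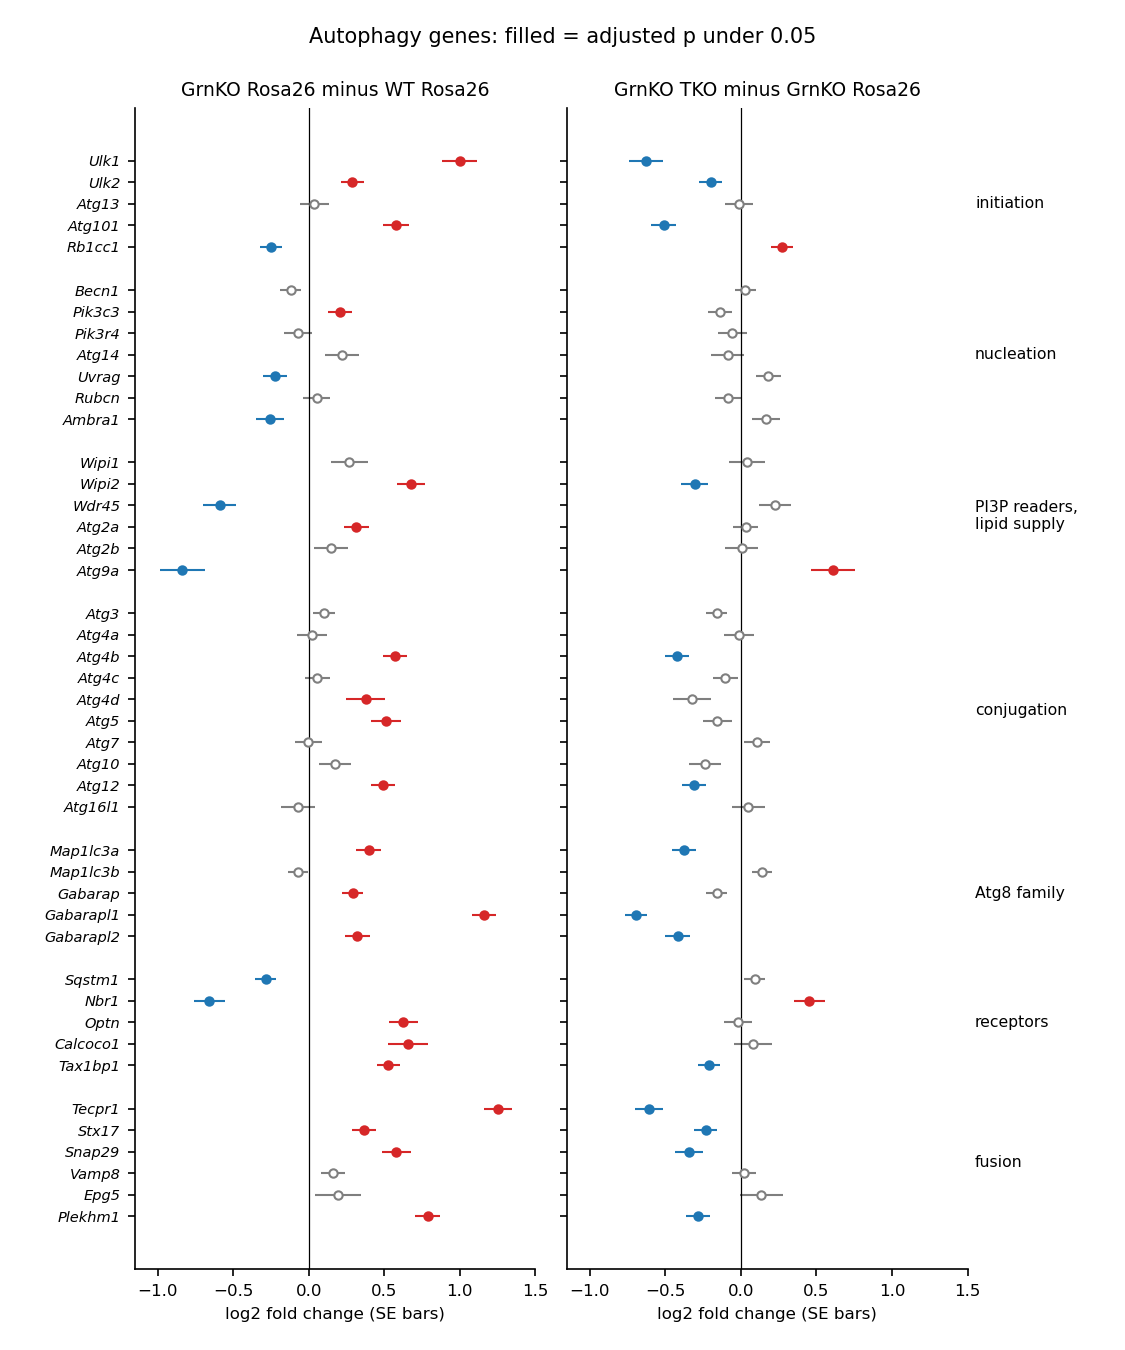
Log2 fold changes (points) with standard errors (bars) of the 44 autophagy genes, ordered by stage, for GrnKO Rosa26 minus WT Rosa26 (left) and GrnKO TKO minus GrnKO Rosa26 (right); filled points passed an adjusted p under 0.05, red for higher and blue for lower. On the left 21 points are filled to the right of 0 and 7 to the left, and on the right 3 and 14.

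Among the 5 initiation genes, Ulk1, Ulk2 and Atg101 rose with Grn loss and Rb1cc1 fell. Ulk1 encodes the kinase that receives signals from mTORC1 and AMPK, and it read 29.2, 34.2, 54.1 and 42.8 CPM in WT Rosa26 (replicates 1 to 4) and 82.2, 73.0, 76.9 and 85.5 CPM in GrnKO Rosa26. In TKO cells it read 40.03, 43.5, 49.5 and 59.0 CPM in WT and 44.1, 52.8, 52.6 and 56.9 CPM in GrnKO. Every GrnKO Rosa26 library stood above all libraries of the other groups, and WT TKO and GrnKO TKO overlapped. The log2 fold change was 1.00 ± 0.12 with Grn loss (edgeR, adjusted p = 2.4e-06) and -0.63 ± 0.11 with editing in GrnKO cells (edgeR, adjusted p = 0.000437). Its paralogue Ulk2 changed by 0.29 ± 0.076 and -0.20 ± 0.075 in the same comparisons (edgeR, adjusted p = 0.00475 and 0.0492), with groups that overlapped.

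Atg101, a subunit that stabilises Atg13 in the kinase complex, read 49.2, 57.5, 63.1 and 54.9 CPM in WT Rosa26 and 82.2, 85.2, 80.4 and 88.5 CPM in GrnKO Rosa26. It read 54.8, 59.0, 53.1 and 68.1 CPM in WT TKO and 55.2, 66.0, 57.8 and 56.9 CPM in GrnKO TKO. As with Ulk1, only GrnKO Rosa26 stood clear of the other 3 groups. Its log2 fold change was 0.58 ± 0.086 with Grn loss and -0.51 ± 0.084 with editing in GrnKO cells (edgeR, adjusted p = 2.63e-05 and 0.000191). Rb1cc1, the scaffold of the complex, moved the other way, by -0.25 ± 0.072 with Grn loss and 0.27 ± 0.071 with editing in GrnKO (edgeR, adjusted p = 0.00828 and 0.00703). Its calls in both comparisons were lost without the filter on low counts, with limma and with batches 1 and 2 alone. Atg13, the adaptor of the complex, changed by 0.036 ± 0.10 and -0.011 ± 0.093 and passed neither test. The call of Ulk2 under editing was lost without any 1 of 13 libraries (adjusted p from 0.0503 to 0.222), all except WT Rosa26 replicates 2 and 3 and GrnKO TKO replicate 2.

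The 7 nucleation genes moved little, with log2 fold changes between -0.26 and 0.22 after Grn loss and between -0.14 and 0.18 after editing in GrnKO. They encode the lipid kinase Pik3c3, its regulatory partner Pik3r4, the scaffold Becn1, the exclusive partners Atg14 and Uvrag, the inhibitor Rubcn and the regulator Ambra1. Pik3c3 was called higher after Grn loss (0.21 ± 0.081, edgeR, adjusted p = 0.0446), while Uvrag (-0.22 ± 0.082, adjusted p = 0.033) and Ambra1 (-0.26 ± 0.093, adjusted p = 0.0303) were called lower. No nucleation gene was called in any other comparison (edgeR). None of the 3 calls held without each library in turn. Under 30 other settings, Pik3c3 was called in 11, Uvrag in 16 and Ambra1 in 18, and Pik3c3 was lost with upper-quartile scaling and with DESeq2. The call of Pik3c3 was lost without any 1 of 9 libraries (adjusted p from 0.051 to 0.179): WT Rosa26 replicates 1, 3 and 4, WT TKO replicate 2, GrnKO Rosa26 replicates 2, 3 and 4 and GrnKO TKO replicates 1 and 4. That of Uvrag was lost without replicate 1, 3 or 4 of WT Rosa26 or GrnKO Rosa26 (0.0622 to 0.0958), and that of Ambra1 without replicate 1, 2 or 4 of either group (0.0535 to 0.117). Becn1 read 258 ± 14.5 CPM (mean ± SD, n = 4) in WT Rosa26 and 237 ± 11.2 CPM in GrnKO Rosa26.

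The 6 genes that read PI3P or supply lipid to the growing membrane split in direction. Wipi2, which binds PI3P and recruits the Atg16l1 complex, read 30.8, 41.1, 38.3 and 45.5 CPM in WT Rosa26 and 57.2, 63.9, 62.9 and 64.9 CPM in GrnKO Rosa26. It read 40.03, 40.4, 34.2 and 50.0 CPM in WT TKO and 43.6, 56.1, 49.4 and 52.9 CPM in GrnKO TKO. GrnKO Rosa26 stood above all other libraries, and the TKO groups overlapped. On the log2 scale it changed by 0.68 ± 0.092 with Grn loss and -0.30 ± 0.090 with editing in GrnKO (edgeR, adjusted p = 1.03e-05 and 0.0138). Its paralogue Wipi1 changed by 0.27 ± 0.12 with Grn loss (adjusted p = 0.0813) and was called in neither comparison. The call of Wipi2 under editing was lost without GrnKO Rosa26 replicate 3 or GrnKO TKO replicate 4 (adjusted p from 0.0626 to 0.0785) and without the batch term (0.0662).

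Wdr45, a further PI3P reader, fell with Grn loss. It read 38.5, 50.0, 43.7 and 35.6 CPM in WT Rosa26 and 31.1, 26.2, 28.0 and 26.8 CPM in GrnKO Rosa26, without overlap. It read 41.1, 37.9, 37.7 and 39.96 CPM in WT TKO and 34.8, 27.4, 35.8 and 33.3 CPM in GrnKO TKO. The log2 fold change was -0.59 ± 0.11 with Grn loss (edgeR, adjusted p = 0.000215) and 0.23 ± 0.11 with editing in GrnKO, which did not pass (adjusted p = 0.111).

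Atg9a encodes the membrane protein of the vesicles that seed autophagosomes, a lipid scramblase. It read 50.8, 34.2, 31.5 and 37.3 CPM in WT Rosa26 and 25.4, 18.9, 23.8 and 17.4 CPM in GrnKO Rosa26, and the groups did not overlap. It read 36.7, 47.9, 40.1 and 38.1 CPM in WT TKO and 39.7, 24.4, 32.1 and 34.6 CPM in GrnKO TKO, where replicate 2 lay within the range of GrnKO Rosa26. Its log2 fold change was -0.84 ± 0.15 with Grn loss (edgeR, adjusted p = 0.000208), the deepest fall among the members, and 0.61 ± 0.14 with editing in GrnKO (edgeR, adjusted p = 0.00409). With batches 1 and 2 alone the rise with editing was 0.51 and was not called. The lipid transfer protein genes Atg2a and Atg2b changed by 0.32 ± 0.085 (adjusted p = 0.00516) and 0.15 ± 0.11 (adjusted p = 0.307) with Grn loss (edgeR), and by 0.032 ± 0.083 and 0.0041 ± 0.11 with editing in GrnKO.

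**Figure D2:**
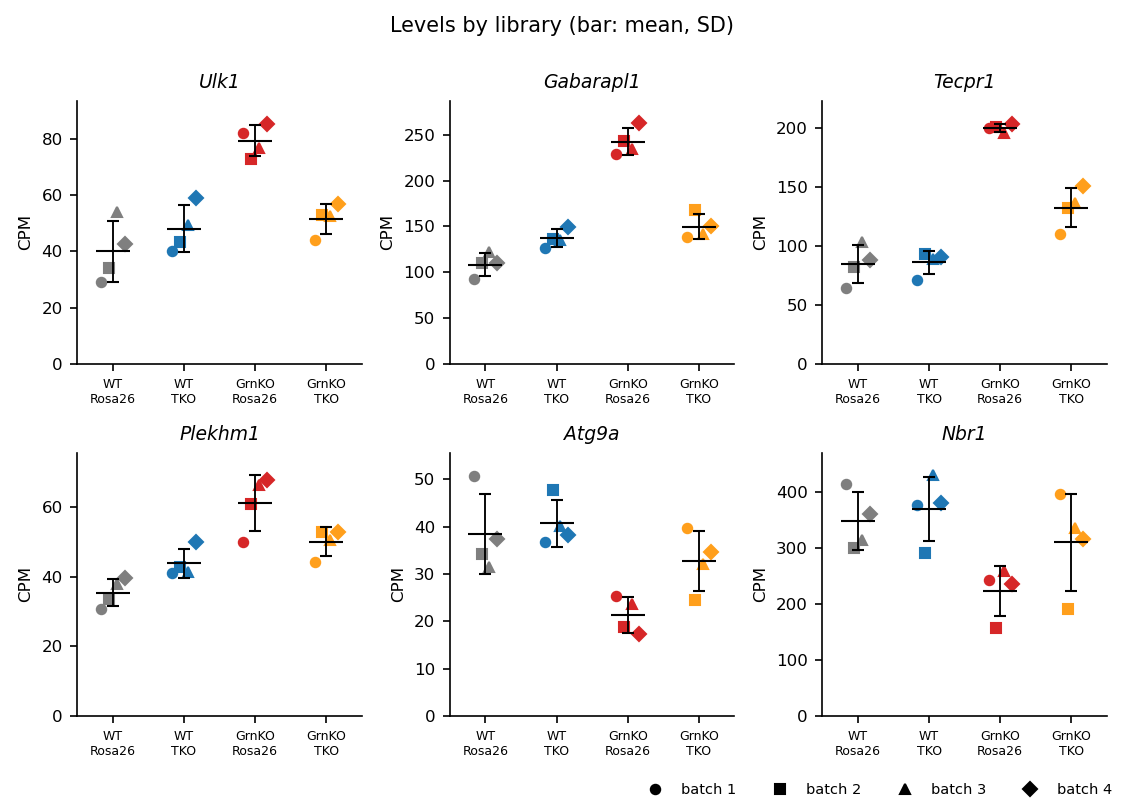
Levels in CPM (y axes, from 0) of 6 autophagy genes in the 16 libraries by group; each symbol is 1 library, its shape gives the batch, and the black bar is the group mean with its SD (n = 4). Ulk1, Gabarapl1 and Tecpr1 were highest in GrnKO Rosa26, with Tecpr1 between 196 and 203.5 CPM there, while Atg9a and Nbr1 had their lowest library in that group.

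Of the 10 conjugation genes, Atg4b, Atg4d, Atg5 and Atg12 rose with Grn loss and none fell. Atg4b encodes the main protease that primes and releases Atg8 proteins. It read 36.9, 36.3, 40.1 and 35.1 CPM in WT Rosa26 and 53.6, 54.8, 55.9 and 56.0 CPM in GrnKO Rosa26. It read 32.9, 36.0, 38.9 and 41.8 CPM in WT TKO and 40.8, 42.9, 39.96 and 40.7 CPM in GrnKO TKO. GrnKO Rosa26 stood above all other libraries, with a log2 fold change of 0.57 ± 0.082 with Grn loss and -0.42 ± 0.080 with editing in GrnKO (edgeR, adjusted p = 1.85e-05 and 0.000657). Its relatives changed with Grn loss by 0.38 ± 0.13 for Atg4d (adjusted p = 0.0227), 0.020 ± 0.10 for Atg4a and 0.058 ± 0.084 for Atg4c (edgeR), and Atg4a and Atg4c did not pass (adjusted p = 0.891 and 0.603). The call of Atg4d was lost without GrnKO Rosa26 replicate 1 or 2 or WT Rosa26 replicate 2 or 4 (adjusted p from 0.077 to 0.0846).

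Atg5 and Atg12 encode the partners of a covalent conjugate that drives Atg8 lipidation. Atg5 read 18.5, 21.2, 20.7 and 19.2 CPM in WT Rosa26 and 28.6, 30.4, 26.2 and 28.6 CPM in GrnKO Rosa26, without overlap. It read 20.3, 19.9, 20.1 and 24.5 CPM in WT TKO and 23.2, 30.0, 24.7 and 24.4 CPM in GrnKO TKO, where the ranges overlapped. On the log2 scale it changed by 0.51 ± 0.10 with Grn loss (edgeR, adjusted p = 0.000334) and -0.16 ± 0.095 with editing in GrnKO, which did not pass (adjusted p = 0.219). Atg12 changed by 0.49 ± 0.078 and -0.31 ± 0.077 in the same comparisons (edgeR, adjusted p = 5.3e-05 and 0.00486). The enzymes of the pathway did not pass in either comparison: with Grn loss the E1-like Atg7 changed by -0.0029 ± 0.088, and the E2-like Atg3 and Atg10 by 0.10 ± 0.072 and 0.17 ± 0.11. Atg16l1, which brings the conjugate to the membrane, changed by -0.068 ± 0.11.

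Of the 5 Atg8 genes, whose products coat the autophagosome membrane, 4 rose with Grn loss and 3 fell with editing in GrnKO. Gabarapl1 read 92.3, 109.5, 122 and 109.7 CPM in WT Rosa26 and 229, 243, 234 and 262 CPM in GrnKO Rosa26. It read 126, 137, 136 and 149.8 CPM in WT TKO and 138, 168, 142 and 150.5 CPM in GrnKO TKO. The lowest GrnKO Rosa26 library stood far above the highest library of any other group, WT TKO stood above WT Rosa26, and both TKO groups overlapped. The log2 fold change was 1.16 ± 0.077 with Grn loss (edgeR, adjusted p = 2.13e-09) and -0.70 ± 0.075 with editing in GrnKO (edgeR, adjusted p = 2.88e-06).

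Map1lc3a, an LC3 paralogue, read 64.6, 82.1, 90.1 and 82.3 CPM in WT Rosa26 and 107, 100.4, 108 and 103 CPM in GrnKO Rosa26. It read 76.8, 87.0, 88.4 and 95.3 CPM in WT TKO and 77.2, 79.2, 89.4 and 77.3 CPM in GrnKO TKO. GrnKO Rosa26 was again above all other libraries, with log2 fold changes of 0.40 ± 0.081 and -0.38 ± 0.080 (edgeR, adjusted p = 0.000614 and 0.00153). Gabarapl2 changed by 0.32 ± 0.084 and -0.42 ± 0.084 (edgeR, adjusted p = 0.00413 and 0.00101), with WT Rosa26 replicate 3 inside the GrnKO Rosa26 range. Gabarap rose by 0.29 ± 0.067 with Grn loss (edgeR, adjusted p = 0.00172) and changed by -0.16 ± 0.067 with editing in GrnKO (adjusted p = 0.071). Map1lc3b, whose protein is the usual LC3 marker of autophagosomes, changed by -0.070 ± 0.066 with Grn loss and 0.14 ± 0.066 with editing in GrnKO and passed neither test (edgeR, adjusted p = 0.412 and 0.119). Its mean level lay between 431 ± 23.3 CPM (SD, n = 4) in GrnKO Rosa26 and 513 ± 18.7 CPM in WT TKO. The WT TKO libraries all stood above those of WT Rosa26, with a log2 fold change of 0.18 ± 0.066 that did not pass (edgeR, adjusted p = 0.155).

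**Figure D3:**
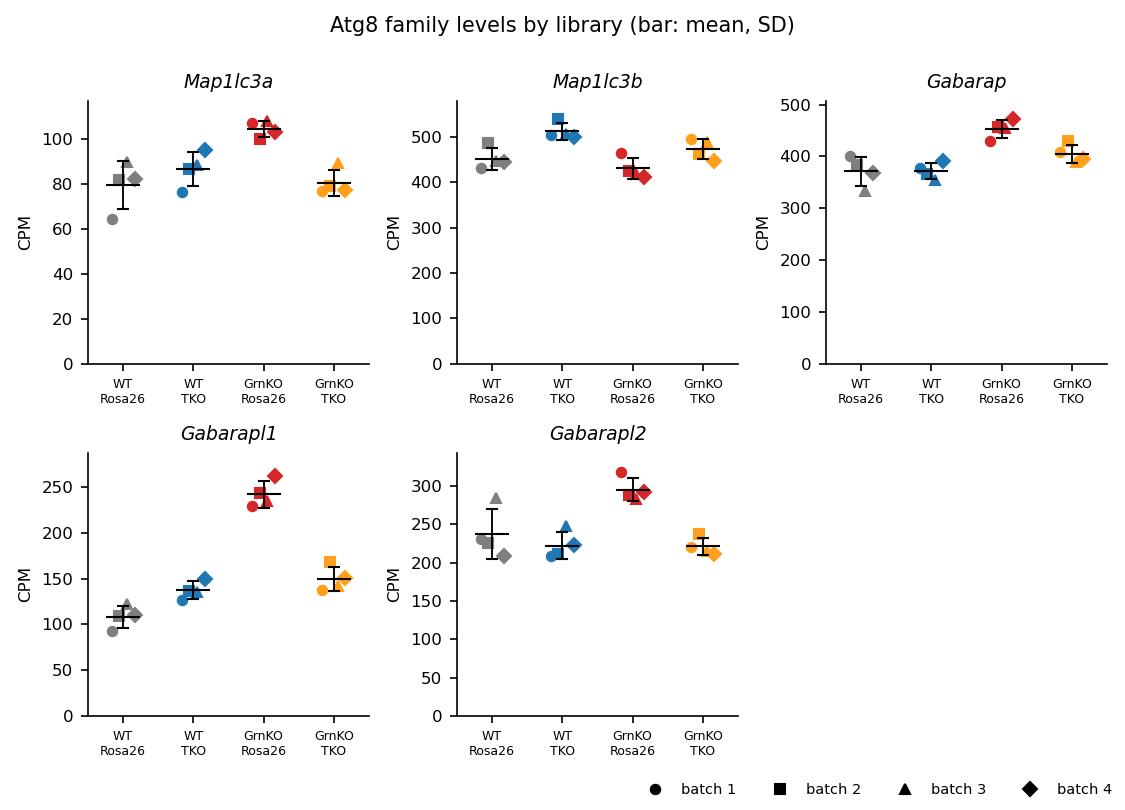
Levels in CPM (y axes, from 0) of the 5 Atg8 genes in the 16 libraries by group; each symbol is 1 library, its shape gives the batch, and the black bar is the group mean with its SD (n = 4). Gabarapl1 stood between 229 and 262 CPM in GrnKO Rosa26 and between 92.3 and 122 CPM in WT Rosa26, and Map1lc3b overlapped between these groups.

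The 5 receptor genes were all called after Grn loss, 3 higher and 2 lower. Nbr1 and Sqstm1 encode related receptors that bind ubiquitin and Atg8 proteins, and both fell. Nbr1 read 415.5, 301, 315 and 362 CPM in WT Rosa26 and 243, 158, 259 and 236 CPM in GrnKO Rosa26, without overlap. It read 378, 292, 430.4 and 381 CPM in WT TKO and 397, 191, 336.5 and 317 CPM in GrnKO TKO, and replicate 2 was the lowest library in each of the 4 groups. Its log2 fold change was -0.66 ± 0.10 with Grn loss and 0.45 ± 0.10 with editing in GrnKO (edgeR, adjusted p = 5.82e-05 and 0.00281), and the second was not called without the batch term. Sqstm1 changed by -0.29 ± 0.069 with Grn loss (edgeR, adjusted p = 0.00247), and by 0.090 ± 0.069 with editing in GrnKO, which did not pass (adjusted p = 0.339).

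Optn encodes a receptor for ubiquitin-coated mitochondria and bacteria. It read 14.9, 13.0, 11.3 and 14.8 CPM in WT Rosa26 and 19.7, 21.6, 21.0 and 20.4 CPM in GrnKO Rosa26. It read 19.7, 18.6, 17.1 and 17.7 CPM in WT TKO and 22.1, 19.5, 19.4 and 20.7 CPM in GrnKO TKO. WT Rosa26 stood below the libraries of all 3 other groups, and the GrnKO groups overlapped. On the log2 scale it changed by 0.63 ± 0.10 with Grn loss (edgeR, adjusted p = 4.03e-05) and -0.020 ± 0.092 with editing in GrnKO (adjusted p = 0.894).

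Tax1bp1, a receptor related to Calcoco1, read 154, 171, 167 and 159 CPM in WT Rosa26 and 229, 259, 220.2 and 233 CPM in GrnKO Rosa26. It read 181, 174, 153 and 168 CPM in WT TKO and 193, 231, 173.5 and 215.5 CPM in GrnKO TKO. The Rosa26 groups did not overlap, and the GrnKO groups did. The log2 fold change was 0.53 ± 0.075 with Grn loss (edgeR, adjusted p = 1.74e-05) and -0.21 ± 0.074 with editing in GrnKO (edgeR, adjusted p = 0.0337). The second call was lost without any GrnKO Rosa26 library, GrnKO TKO replicate 1 or 3 or WT Rosa26 replicate 4 (adjusted p from 0.0527 to 0.131). Calcoco1 read 5.69, 6.64, 5.41 and 8.78 CPM in WT Rosa26 and 8.58, 10.7, 9.78 and 12.4 CPM in GrnKO Rosa26. It read 7.13, 8.08, 5.37 and 11.8 CPM in WT TKO and 8.83, 13.2, 8.94 and 13.0 CPM in GrnKO TKO. Its Rosa26 groups overlapped, while within each batch GrnKO Rosa26 was above WT Rosa26, and the log2 fold change was 0.66 ± 0.13 with Grn loss (edgeR, adjusted p = 0.00059) and 0.077 ± 0.12 with editing in GrnKO (adjusted p = 0.673).

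Of the 6 fusion genes, Tecpr1, Stx17, Snap29 and Plekhm1 rose with Grn loss and fell with editing in GrnKO, while Vamp8 and Epg5 passed neither test. Tecpr1 encodes a protein that binds the Atg12 and Atg5 conjugate and has been described as a tether of autophagosomes and lysosomes. It read 64.6, 82.1, 104 and 87.8 CPM in WT Rosa26 and 200.2, 201, 196 and 203.5 CPM in GrnKO Rosa26. It read 71.3, 93.2, 88.4 and 90.8 CPM in WT TKO and 110.3, 132, 137 and 150.5 CPM in GrnKO TKO. GrnKO Rosa26 stood highest, GrnKO TKO second, and the WT groups overlapped below both. Its log2 fold change was 1.26 ± 0.092 with Grn loss (edgeR, adjusted p = 7.89e-09) and -0.61 ± 0.090 with editing in GrnKO (edgeR, adjusted p = 6.68e-05).

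Plekhm1, an adaptor between Rab7, Atg8 proteins and the HOPS tether, read 30.8, 33.5, 37.9 and 39.5 CPM in WT Rosa26 and 50.0, 60.8, 66.4 and 67.8 CPM in GrnKO Rosa26. It read 41.1, 42.9, 41.3 and 50.0 CPM in WT TKO and 44.1, 52.8, 50.5 and 52.9 CPM in GrnKO TKO. WT Rosa26 stood below all 3 other groups, and the GrnKO groups overlapped. On the log2 scale it changed by 0.79 ± 0.080 with Grn loss and -0.29 ± 0.078 with editing in GrnKO (edgeR, adjusted p = 4.44e-07 and 0.00857), and the second call was lost without GrnKO TKO replicate 4 (0.0539) and without the batch term (0.0507).

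Stx17, Snap29 and Vamp8 encode the SNARE proteins that fuse autophagosomes with lysosomes. Snap29 read 41.5, 49.3, 54.1 and 39.0 CPM in WT Rosa26 and 71.5, 66.9, 62.9 and 73.7 CPM in GrnKO Rosa26. It read 49.4, 48.5, 52.5 and 50.0 CPM in WT TKO and 55.2, 56.1, 52.6 and 52.9 CPM in GrnKO TKO. GrnKO Rosa26 stood above all other libraries, with log2 fold changes of 0.58 ± 0.094 and -0.35 ± 0.092 (edgeR, adjusted p = 6.65e-05 and 0.00759). Stx17 changed by 0.37 ± 0.077 and -0.23 ± 0.076 (edgeR, adjusted p = 0.000808 and 0.0248), and its second call was lost without replicate 1, 2 or 3 of GrnKO Rosa26 or replicate 1, 2 or 4 of GrnKO TKO (0.0523 to 0.0906). Vamp8 changed by 0.16 ± 0.079 with Grn loss (adjusted p = 0.102), and the tether gene Epg5 by 0.19 ± 0.15 (adjusted p = 0.316).

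In WT cells, editing raised 4 members and lowered none. Over all genes tested in WT TKO against WT Rosa26, 2.18% were called higher and 1.16% lower. The median log2 fold change was 0.056 over the members and -0.011 over all genes. The 4 genes were Optn (0.45 ± 0.10, edgeR, adjusted p = 0.0143), Atg2a (0.37 ± 0.085, adjusted p = 0.0206), Gabarapl1 (0.34 ± 0.076, adjusted p = 0.017) and Plekhm1 (0.31 ± 0.081, adjusted p = 0.0406), and each was higher in WT TKO in all 4 batches. None of them held its call without each library. Optn was lost without replicate 2 of WT Rosa26 or WT TKO (0.0534 to 0.0598), and Atg2a without WT Rosa26 replicate 1 or 2 or WT TKO replicate 2 or 4 (0.0739 to 0.105). Gabarapl1 was lost without WT Rosa26 replicate 1, 2 or 4 or WT TKO replicate 1 or 4 (0.0539 to 0.0782). Plekhm1 was lost without replicate 1, 2 or 4 of either WT group, GrnKO TKO replicate 1 or GrnKO Rosa26 replicate 2 or 4 (0.0556 to 0.148). The count of called members was 0 without WT Rosa26 replicate 2, 1 without WT Rosa26 replicate 1, WT TKO replicate 2 or WT TKO replicate 4, and 2 without WT TKO replicate 1 or WT Rosa26 replicate 4. It was also 1 without the batch term, where 164 of all genes were called higher and 52 lower, beside 336 and 179 with it. Without WT Rosa26 replicate 2, 185 of all genes were called higher and 77 lower.

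The effect of editing differed between the genotypes for 9 members, and for each of them the change was lower in GrnKO cells. Over all genes tested for this interaction, 7.63% were called lower and 5.8% higher, and no member was called higher. The median difference was -0.195 on the log2 scale over the members and -0.0055 over all genes. It was largest for Gabarapl1, at -1.03 ± 0.11 (edgeR, adjusted p = 1.52e-05), and for Ulk1, at -0.89 ± 0.16 (edgeR, adjusted p = 0.0024). Tecpr1 followed with -0.63 ± 0.13 (adjusted p = 0.00413), Plekhm1 with -0.59 ± 0.11 (adjusted p = 0.00265) and Atg101 with -0.57 ± 0.12 (adjusted p = 0.00526). Map1lc3a (-0.50 ± 0.11), Optn (-0.47 ± 0.14), Snap29 (-0.47 ± 0.13) and Atg4b (-0.43 ± 0.12) completed the set (edgeR, adjusted p = 0.00833, 0.0273, 0.0253 and 0.0184). In all 9 the difference was below 0 in each of the 4 batches. Gabarapl1 and Plekhm1 were called higher with editing in WT cells and lower in GrnKO cells. Optn was called only in WT cells, and the other 6 only in GrnKO cells.

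The calls of Optn, Snap29 and Atg4b in this interaction did not hold without each library in turn. They were called under 20, 20 and 23 of 29 other settings. Optn was lost without WT TKO replicate 1, WT Rosa26 replicate 2, GrnKO Rosa26 replicate 2 or 3 or GrnKO TKO replicate 4 (adjusted p from 0.0542 to 0.0833). Snap29 was lost without WT Rosa26 replicate 1 or 4, GrnKO Rosa26 replicate 1, 2 or 4, GrnKO TKO replicate 3 or 4 or WT TKO replicate 4 (0.0507 to 0.0862). Atg4b was lost without GrnKO Rosa26 replicate 2 or replicate 4 of any other group (0.0518 to 0.0649). Without WT Rosa26 replicate 3, 15 members were called lower and 3 higher, beside 1924 and 1684 of all 15527 genes tested. Without GrnKO TKO replicate 2, 12 were called lower and 2 higher, beside 1453 and 1180 of 15438 genes. With every library 1174 of all genes were called lower and 893 higher, so the calls of all genes moved as well. With batches 1 and 2 alone 3 members were called lower and 0 higher, beside 295 and 394 of 15475 genes. With weakly expressed genes left out at the cut-off of 5 CPM given above, 9 members were called lower and 1 higher. Beside them stood 939 lower and 901 higher of 9706 genes, and the members' median was -0.14.

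**Figure D4:**
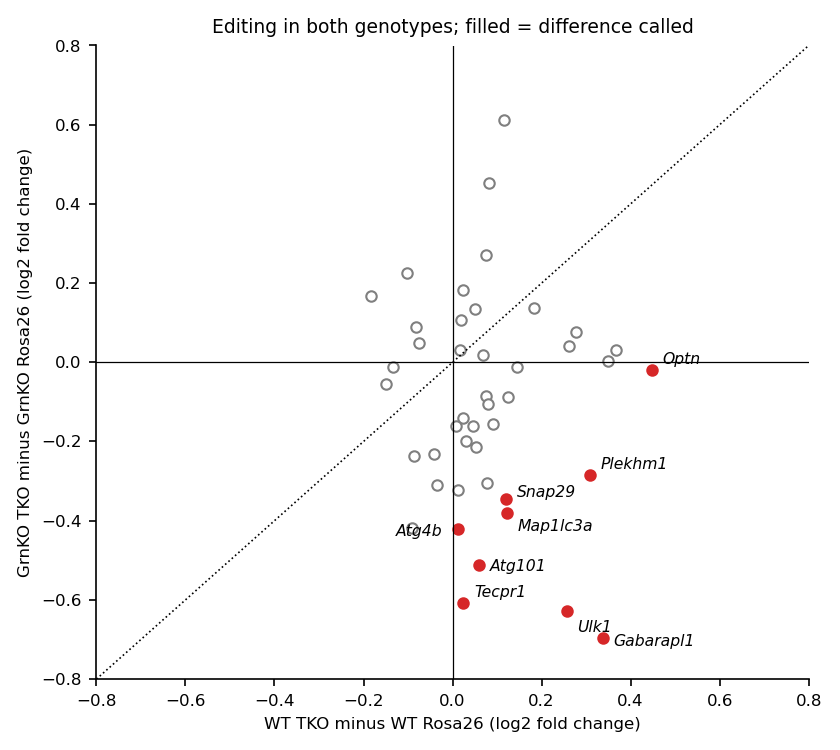
Log2 fold change of the 44 autophagy genes with editing in WT cells (x axis) and in GrnKO cells (y axis), which share no libraries; each circle is 1 gene, filled red circles are the 9 genes whose difference passed an adjusted p under 0.05, and the dotted line marks equal change. All 9 lie below the line, with Gabarapl1 at 0.34 and -0.70.

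In TKO cells, loss of Grn left 3 members called higher and none lower. Over all genes tested in GrnKO TKO against WT TKO, 2.53% were called higher and 2.45% lower. The median log2 fold change was 0.045 over the members and 0.0048 over all genes. Tecpr1 was 0.62 ± 0.091 higher on the log2 scale (edgeR, adjusted p = 0.000463), with no overlap between the groups. Calcoco1 (0.46 ± 0.13) and Tax1bp1 (0.26 ± 0.075) were called narrowly (edgeR, adjusted p = 0.0466 and 0.0483). Both had overlapping groups, and each call was lost without any 1 of 12 libraries (0.0511 to 0.219 and 0.052 to 0.204). For Tax1bp1 these were all except WT Rosa26 replicates 1 and 3, WT TKO replicate 1 and GrnKO TKO replicate 3, and for Calcoco1 all except WT Rosa26 replicates 1 and 3, WT TKO replicate 4 and GrnKO Rosa26 replicate 3. Tecpr1 was then the only member called without any 1 of 10 libraries (replicates 1, 2 and 4 of both GrnKO groups, WT Rosa26 replicates 2 and 4 and WT TKO replicates 2 and 3). In these 10 fits 154 to 387 of all genes were called higher and 124 to 370 lower, beside 390 and 377 with every library. So the calls of all genes fell as well. Without WT Rosa26 replicate 3, 5 members were called, and 544 of all genes were called higher and 601 lower. Ulk1 (0.11 ± 0.11) and Gabarapl1 (0.13 ± 0.076) did not pass here (adjusted p = 0.656 and 0.385).

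Edited GrnKO cells differed from control-edited WT cells in 11 members, 10 higher and 1 lower. Over all genes tested in GrnKO TKO against WT Rosa26, 6.43% were called higher and 6.25% lower. The median log2 fold change was 0.078 over the members and -0.0051 over all genes. The receptors Calcoco1 (0.74 ± 0.14), Optn (0.61 ± 0.10) and Tax1bp1 (0.31 ± 0.075) were higher (edgeR, adjusted p = 0.00187, 0.000622 and 0.0103). Of the fusion genes, Tecpr1 (0.65 ± 0.091) and Plekhm1 (0.50 ± 0.081) were higher (edgeR, adjusted p = 0.000178 and 0.000617). Gabarapl1 stood higher by 0.47 ± 0.076 (edgeR, adjusted p = 0.000739), Wipi2 by 0.37 ± 0.092, Atg2a by 0.35 ± 0.085, Atg5 by 0.36 ± 0.10 and Ulk1 by 0.37 ± 0.12 (adjusted p = 0.0125, 0.0119, 0.0238 and 0.043), and Wdr45 changed by -0.36 ± 0.11 (adjusted p = 0.0327).

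Of these 11 calls, Calcoco1, Optn, Tax1bp1, Tecpr1, Plekhm1 and Gabarapl1 held without each library in turn. Calcoco1 was lost without the batch term, and Tax1bp1 in a fit of only the groups compared. Ulk1 was lost without any 1 of 11 libraries (adjusted p from 0.0525 to 0.165): replicates 1, 2 and 4 of WT Rosa26 and of GrnKO TKO, replicates 1, 2 and 3 of WT TKO and replicates 2 and 4 of GrnKO Rosa26. Wdr45 was lost without GrnKO TKO replicate 1, 2 or 4 or replicate 2 of WT Rosa26 or GrnKO Rosa26 (0.0505 to 0.191). Both Ulk1 and Wdr45 were also lost with the Ddx3y level as a further term, and were called under 15 and 18 of 30 other settings. Atg5 was lost without WT Rosa26 replicate 1, 2 or 4 or GrnKO TKO replicate 2 (0.0547 to 0.113). Atg2a was lost without replicate 2 of WT Rosa26 or GrnKO TKO (0.0517 to 0.0637), and Wipi2 without GrnKO TKO replicate 2 (0.0592). The count was 6 without GrnKO TKO replicate 2, 7 without WT Rosa26 replicate 2 and 5 without the batch term. All genes called were then 598 higher and 404 lower, 536 and 411, and 459 and 273, in that order. With every library and the batch term they were 989 and 961.

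**Figure D5:**
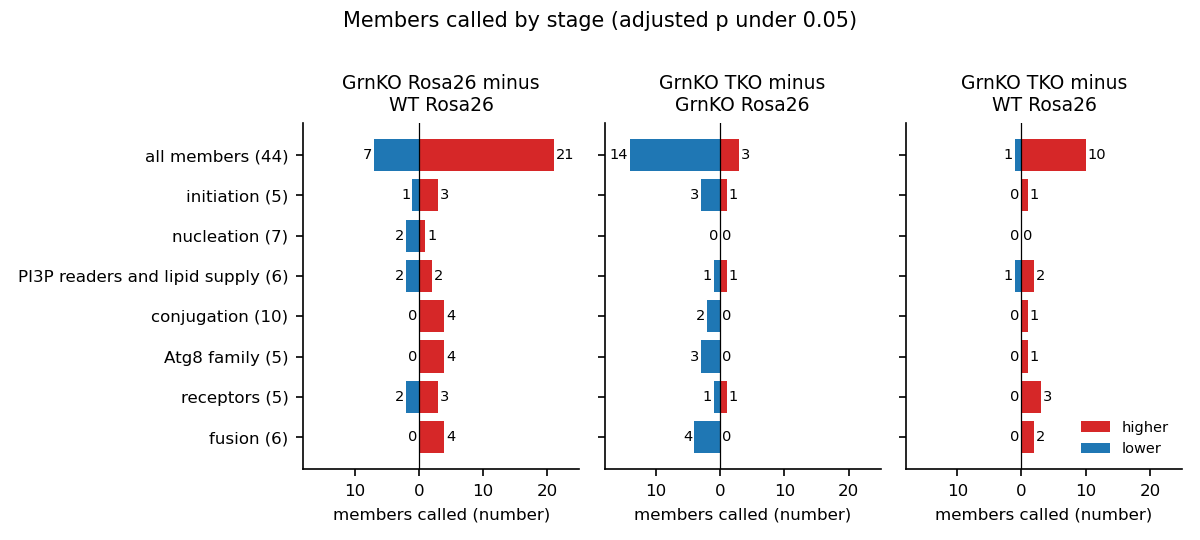
Number of autophagy genes called higher (red, to the right) and lower (blue, to the left) at an adjusted p under 0.05, for all 44 and by stage with the number of genes in brackets, in 3 comparisons. The nucleation stage had no called gene with editing in GrnKO or in GrnKO TKO against WT Rosa26, and 3 receptor genes were higher in the last comparison.

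Promoter sequence was read for the 37 members in the RefSeq promoter table of GRCm38.p6, an earlier build than the GRCm39 named for the counts, from 250 bases before to 50 after each start. The E-box CACGTG, searched on both strands, lay in 5 of the 37 (13.5%) beside 8.09% of all 27025 genes in the table. They were Atg14, Atg3, Atg5, Atg7 and Rubcn. The longer form TCACGTG, with the flanking T known for MiT/TFE sites, lay in 4 members (10.8%, beside 4.29% of all genes), all of which also count for CACGTG, and the full palindrome TCACGTGA in Atg3 alone (2.7%, beside 1.12%). TCATGTG, the M-box, lay in no member and in 4.31% of all genes. The stretches that hold an E-box before the start are shown first, with CACGTG in capitals, followed by the bases before the start of the 3 members that rose most, which held none of these motifs in the window:
Atg5, chr10:44268285-44268338, plus strand: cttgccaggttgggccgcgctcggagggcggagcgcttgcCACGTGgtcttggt
Atg3, chr16:45158695-45158803, plus strand: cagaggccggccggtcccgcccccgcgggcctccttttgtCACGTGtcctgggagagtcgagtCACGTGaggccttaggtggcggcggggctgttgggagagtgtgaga
Rubcn, chr16:32868409-32868494, minus strand: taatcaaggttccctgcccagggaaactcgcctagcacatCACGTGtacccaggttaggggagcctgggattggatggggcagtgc
Atg7, chr6:114670924-114671009, plus strand: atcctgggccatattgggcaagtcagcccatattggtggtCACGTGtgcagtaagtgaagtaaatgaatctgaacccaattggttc
Tecpr1, chr5:144223616-144223715, minus strand: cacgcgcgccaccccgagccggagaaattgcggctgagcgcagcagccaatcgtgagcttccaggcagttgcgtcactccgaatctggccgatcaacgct
Gabarapl1, chr6:129533092-129533191, plus strand: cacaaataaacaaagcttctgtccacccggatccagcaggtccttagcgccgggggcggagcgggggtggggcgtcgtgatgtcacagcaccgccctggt
Ulk1, chr5:110810082-110810181, minus strand: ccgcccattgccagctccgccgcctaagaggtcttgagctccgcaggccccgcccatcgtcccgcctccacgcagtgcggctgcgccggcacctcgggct
The E-box of Atg14 starts at the last base before its start site, so most of it lies after the start, and it is not shown. Of the 5 genes with an E-box, Atg5 was called after Grn loss and Atg3, Atg7, Atg14 and Rubcn were not, as given above. A match is a description of these letters and not a binding site, and no match says only that the letters are not in this window.

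The other genes of the pathway were counted in the same fit from 4 lists. These lists were chosen with earlier results of these data known, so their shares are description and test nothing. Of 27 tested genes from a list of other autophagy genes (receptors, membrane-supply proteins and regulators), 7 rose and 3 fell with Grn loss and 5 fell with editing in GrnKO, with medians of 0.156 and -0.038. The shares called were 25.9% higher and 11.1% lower after Grn loss and 18.5% lower with editing, of which the first and last lie near the 23.1% and 17.8% of all genes. Tollip, a ubiquitin-binding receptor, changed by 0.73 ± 0.086 and -0.33 ± 0.084, and Ncoa4, the ferritin receptor, by 0.42 ± 0.081 and -0.31 ± 0.080 (edgeR, adjusted p = 2.21e-06, 0.00605, 0.000392 and 0.00587). Rtn3, a reticulon known as a receptor for endoplasmic reticulum tubules, changed by -0.38 ± 0.072 with editing in GrnKO (edgeR, adjusted p = 0.000697). Of 13 tethering and fusion partners, 7 rose with Grn loss and none fell, and 5 fell with editing in GrnKO and none rose, with medians of 0.33 and -0.13. These are 53.8% called higher beside 23.1% of all genes and 38.5% called lower beside 17.8%. Arl8b, the small GTPase that recruits HOPS to lysosomes and a partner of Plekhm1, had a mean of 82.2 CPM (SD 12.2, n = 4) in WT Rosa26 and 196 CPM (SD 5.07) in GrnKO Rosa26. It changed by 1.25 ± 0.088 with Grn loss and -0.73 ± 0.086 with editing in GrnKO (edgeR, adjusted p = 4.78e-09 and 7.24e-06), and its interaction was -0.96 ± 0.12 (adjusted p = 0.000116). The HOPS subunit gene Vps33a changed by 0.77 ± 0.10 and -0.41 ± 0.10 (adjusted p = 7.46e-06 and 0.00349). The SNARE gene Stx7 changed by 0.49 ± 0.071 and -0.47 ± 0.070 (adjusted p = 1.92e-05 and 8.34e-05), and Plekhm2, an Arl8 effector gene, by -0.45 ± 0.088 with editing in GrnKO (adjusted p = 0.000839). Vamp7 was not analysed here.

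Of 14 genes of mTORC1 and AMPK, the kinases that act on Ulk1, 5 rose and 2 fell with Grn loss, and 1 rose and 4 fell with editing in GrnKO, with medians of 0.15 and -0.025. The shares were 35.7% higher and 14.3% lower after Grn loss, beside 23.1% and 21.5% of all genes, and 7.14% higher and 28.6% lower with editing, beside 14.8% and 17.8%. The AMPK gamma subunit genes Prkag1 and Prkag2 changed by 0.70 ± 0.11 and 0.62 ± 0.11 with Grn loss and by -0.46 ± 0.10 and -0.49 ± 0.10 with editing in GrnKO (edgeR, adjusted p = 3.57e-05, 0.000128, 0.00266 and 0.00167). Of 8 tested transcription factors other than MiT/TFE that are described for autophagy genes, 4 rose and 2 fell with Grn loss and 2 rose and 1 fell with editing in GrnKO. These are 50% higher and 25% lower beside 23.1% and 21.5% of all genes, and 25% higher and 12.5% lower beside 14.8% and 17.8%. Foxo4, a relative of Foxo3, changed by 0.81 ± 0.11 with Grn loss (edgeR, adjusted p = 1.44e-05) and by -0.18 ± 0.11 with editing in GrnKO, which did not pass (adjusted p = 0.22). Ddit3, a factor of the stress response, rose by 0.64 ± 0.13 with Grn loss (edgeR, adjusted p = 0.000709). Foxo3, a factor known to raise autophagy genes in muscle, changed by 0.48 ± 0.10 and -0.33 ± 0.094, and Hif1a by -0.68 ± 0.071 and 0.74 ± 0.071 (edgeR, adjusted p = 0.000508, 0.0119, 6.23e-07 and 6.15e-07). Hif1a was the only gene of the 4 lists called with editing in WT cells, at 0.36 ± 0.071 (edgeR, adjusted p = 0.0068).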

How the data were processed

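Per the labels' protocols, 3′ ends of mRNA were sequenced (QuantSeq) with unique molecular identifiers. The submitters' processing notes name STAR 2.7.9a, Salmon 1.10.1, edgeR 4.6.2, R 4.5.1 and the build GRCm39, with no roles. The authors deposited estimated counts per gene, of which 11% of the non-zero values were not whole and all held 2 significant digits or fewer, and they were rounded to whole numbers here. The deposited normalized signal equalled, within 10%, CPM from library size times a scaling factor at counts of 10 or more. It was used for that check and as the input of the limma alternatives, and all held 2 significant digits or fewer there too. CPM values in the text were computed from the counts.

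Counts were filtered with filterByExpr (minimum count 10), scaled by TMM and tested with edgeR 4.0.16 (R 4.3.3) by the quasi-likelihood test with group and batch as terms, on all 16 libraries. The biological coefficient of variation was 12%. The interaction is the change with editing in GrnKO minus that in WT. The procedure was run on simulated counts drawn for each library by itself, with no batch shift. That run cannot show the effect of what libraries share. Batch, given in the labels, served as the replicate block. Libraries of 1 genotype and batch deviated together (mean correlation 0.275 in WT and 0.276 in GrnKO). Those of 1 batch across genotypes did so less, with means of 0.0393 between the Rosa26 groups (lowest -0.173) and 0.0944 between the TKO groups. The batch term is 1 shift for both genotypes, so what libraries of 1 genotype and batch share beyond it was not modelled. How far the standard errors and p-values depend on this, above all in comparisons of genotypes, was not tested. Fits of only the groups compared hold 1 library per genotype and batch in those comparisons, but also fewer libraries. For Grn loss in Rosa26 cells they gave 19 members higher and 5 lower, beside 2831 and 2594 of 14916 genes. Their counts for the other comparisons of genotypes are given at the end. Alternatives used limma 3.58.1, DESeq2 1.42.0, other scalings, filters, subsets of libraries and counts thinned to the shallowest library. Of these, batches 1 and 2 alone and counts drawn within their rounding, were chosen after seeing the data. Members and lists were chosen with earlier results of these data known. Members called with a log2 fold change of 0.5 or more in size in a comparison other than GrnKO TKO against WT Rosa26 are given by library, and other pathway genes named are among the 4 of smallest p in their list for a comparison.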

Additional observations from a re-analysis of the deposited data

Results flagged for a closer look

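The effect of editing differed between WT and GrnKO cells for 9 members by the test of the difference itself (edgeR, adjusted p under 0.05 as given above). The difference, GrnKO minus WT on the log2 scale, was -1.03 for Gabarapl1, -0.89 for Ulk1, -0.63 for Tecpr1, -0.59 for Plekhm1, -0.57 for Atg101, -0.50 for Map1lc3a, -0.47 for Optn, -0.47 for Snap29 and -0.43 for Atg4b.

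Of 64 groups checked, 4 for each of the 16 members given by library, 2 held a library far from the other 3. Atg5 read 24.5 CPM in WT TKO replicate 4, above the other libraries of that group, and Map1lc3a read 89.4 CPM in GrnKO TKO replicate 3, also above the others. Chance alone sets a library apart in about 1 in 20 such groups.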

How the results depend on the processing

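Beside 28, 17, 4, 3, 9 and 11 members called for Grn loss in Rosa26 cells, editing in GrnKO, editing in WT, Grn loss in TKO cells, the interaction and GrnKO TKO against WT Rosa26, the counts without the replicate block (batch term) were 25, 12, 1, 1, 8 and 5. All genes called for editing in GrnKO were then 1763 higher and 2196 lower, beside 2271 and 2740 with the block. For the interaction they were 361 and 549, beside 893 and 1174. For Grn loss they were 3127 and 2914 in Rosa26 cells, beside 3548 and 3310, and 191 and 154 in TKO cells, beside 390 and 377. Fitting only the groups compared gave 7 higher and 17 lower for editing in GrnKO, 1 for Grn loss in TKO cells and 5 for GrnKO TKO against WT Rosa26, and the Ddx3y term gave 1 for Grn loss in TKO cells. With only the groups compared, 3608 of 15346 genes were called higher and 3544 lower for editing in GrnKO. For Grn loss in TKO cells they were 234 and 254 of 14436 genes, beside 390 and 377 of 15385. For GrnKO TKO against WT Rosa26 they were 309 and 193 of 14443, beside 989 and 961 of 15385. The Ddx3y term gave 358 and 321 of 15385 genes for Grn loss in TKO cells. The interaction count was 14 with no filter on low counts and with limma at a pseudocount of 1 or 0.5. In these settings 1860 of 46964, 2027 of 15385 and 2020 of 15385 genes were called lower, beside 1174 of 15385. The first of these is out of a larger number of genes tested. With batches 1 and 2 alone, counts were 7 for editing in GrnKO, 0 for editing in WT, 1 for Grn loss in TKO cells and 3 for the interaction. Of 15475 genes, 132 were then called higher and 67 lower for editing in WT, and 46 and 32 for Grn loss in TKO cells. The calls then lost with editing in GrnKO were Atg9a (0.51), Tax1bp1, Ulk2, Snap29, Rb1cc1, Atg4b, Wipi2, Atg12, Plekhm1 and Stx17, and in the interaction Atg101 (-0.57), Map1lc3a (-0.57), Plekhm1 (-0.59), Snap29, Atg4b and Optn. Leaving out 1 library gave 24 to 29, 13 to 19, 0 to 6, 1 to 5, 6 to 18 and 6 to 15 members. Each highest count came without WT Rosa26 replicate 3, where the calls of all genes rose as well. For Grn loss in Rosa26 cells they were 3777 higher and 3507 lower there, for editing in GrnKO 2577 and 3010. For editing in WT they were 450 and 300, and for GrnKO TKO against WT Rosa26 1309 and 1394. The 24 came without WT Rosa26 replicate 4, with 3019 and 2871 of all genes. The cause of these moves was not tested.

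The median of all genes shifted by more than 0.1 without the filter on low counts, to 0.114 for Grn loss in Rosa26 cells and -0.108 for the interaction, where the members' medians were 0.324 and -0.297. With limma at a pseudocount of 1, the share of all calls that were higher was 79.1% instead of 65.2% for editing in WT, 23.6% instead of 43.2% for the interaction and 66.4% instead of 50.7% for GrnKO TKO against WT Rosa26, where 12 members were higher and 0 lower. Still called under every one of 30 settings were 21 of 28 members for Grn loss in Rosa26 cells, 6 of 17 for editing in GrnKO, 0 of 4 for editing in WT, 1 of 3 for Grn loss in TKO cells and 4 of 11 for GrnKO TKO against WT Rosa26, and under every one of 29 settings 3 of 9 for the interaction. WT Rosa26 replicate 1, with 7069445 counts, limits the depth, and counts deposited to 2 significant digits limit the precision of each value. With every library thinned to that depth, 19 members were higher and 8 lower for Grn loss in Rosa26 cells. Beside them stood 2799 and 2747 of 12625 genes. Editing in GrnKO then gave 5 higher and 10 lower, beside 1733 and 1906 of all genes. The interaction gave 0 higher and 7 lower, beside 751 and 761. The E-box counts in the 250 bases before the start alone were 4 for CACGTG and 3 for TCACGTG.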
